A study of Mus musculus with 69 samples.

Results

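The adrenergic receptor genes were followed through 69 RNA-Seq libraries of cultured murine vascular cells. The members were the 7 genes Adra1a, Adra1b, Adra1d, Adra2a, Adra2b, Adrb1 and Adrb3, taken by gene symbol from the 56953 genes of the count tables. Other receptor genes of the family were not analysed here. WT VSMC were primary smooth muscle cells of the aorta from wildtype male C57BL/6 mice. KO VSMC came from mice with a floxed Egfr gene and Cre recombinase under the SM22 promoter, which is active in smooth muscle cells. EC were primary cells from the heart, enriched with beads as CD45- and CD31+ cells. All EC are labelled WT, also those of sets 15 and 16, whose animals gave KO VSMC. VSMC spent 24 h without serum or supplements, and all cells were then kept for 24 h under 1 of 4 conditions, with albumin in every incubation solution. These were Control, HG + FFA (20 mM glucose with the fatty acids oleate and palmitate, 100 µM each), AII + NA (30 nM angiotensin II with 300 nM norepinephrine) and ALL, which is all of these together. The sample labels name epinephrine in place of norepinephrine and give 100 µM free fatty acids, so that the agonist given to the receptors is described differently by the labels and the methods.

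Libraries were grouped in 18 sets, each from 1 animal and passage treated together. WT VSMC were sets 1 to 4 (16 libraries), KO VSMC sets 5 to 8 (15 libraries) and EC sets 9 to 18 (38 libraries from 9 animals, since sets 17 and 18 came from the same animal). The ALL library of set 5, the Control library of set 10 and the AII + NA library of set 15 were not analysed here. Every cell type is therefore a primary culture of few animals, with VSMC used at up to 7 passages, and VSMC and EC carry different batch labels. Total counts per library ranged from 17166133 to 43240489. Levels are given as FPM, the study's unit of counts scaled to library size, here after TMM scaling over all libraries. Egfr, the deleted gene, averaged 244 to 423 FPM over the libraries of each WT VSMC set. In KO VSMC it was at 0.95 to 1.83 FPM in sets 6 to 8 and at 36.2 FPM in set 5. EC sets 15 and 16 came from the animals of KO VSMC sets 7 and 6, and Egfr was at 9.40 and 2.63 FPM there, against 13.2 to 152 FPM in the other EC sets.

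The labelled cell types were checked against marker lists. The summed level of 9 smooth muscle markers was 1131 to 5237 FPM in EC libraries, 1057 to 3643 FPM in WT VSMC and 1641 to 4322 FPM in KO VSMC, so that EC cultures were not set apart by it. The sum of 10 endothelial markers was 47.9 to 4936 FPM in EC, 2.32 to 73.7 FPM in WT VSMC and 2.13 to 14.5 FPM in KO VSMC. In EC sets 9, 11 and 13 its set means were 53.8, 135 and 59.7 FPM, against 564 to 4454 FPM in the other 7 EC sets. The sum of 6 fibroblast markers reached a mean of 10018 FPM in EC set 13, but it was high in WT VSMC too. Its median over libraries was 3019 FPM in EC (up to 11151), 6162 FPM in WT VSMC (up to 11659) and 1705 FPM in KO VSMC (up to 6494). In these bulk libraries, fewer cells of a type and less RNA per cell cannot be told apart. The sum of 6 cardiomyocyte markers had a median of 96.1 FPM in EC (up to 314), 25.1 FPM in WT VSMC and 56.8 FPM in KO VSMC, while 3 of the 6 (Myh6, Actc1 and Nppa) had a median count of 0 in all 3 cell types, as did Adipoq, Cidec, Ucp1 and Lep among the adipocyte markers.

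Adrenergic receptors are G protein-coupled receptors for norepinephrine and epinephrine. The alpha 1 subtypes (Adra1a, Adra1b, Adra1d) couple mainly to Gq and phospholipase C beta and drive contraction of arterial smooth muscle. The alpha 2 subtypes (Adra2a, Adra2b) couple to Gi and lower cAMP, and the beta subtypes (Adrb1, Adrb3) couple mainly to Gs and raise cAMP. Prolonged exposure to an agonist is known to desensitize many of these receptors through kinases of the GRK family and arrestins.

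Adra1b was the only member with an adjusted p under 0.05 for any stressor, and the sequences before its start sites are shown for that reason. RefSeq lists 2 starts for this gene on the minus strand of chromosome 11, and the 250 bases before each are given 5′ to 3′ with GC boxes (GGGCGG on either strand) in capitals. In the GRCm38.p6 build they lie at chr11:43901238-43901487 for the first and chr11:43836490-43836739 for the second. The count tables hold 1 value per gene and do not tell the starts apart.
Adra1b, first start: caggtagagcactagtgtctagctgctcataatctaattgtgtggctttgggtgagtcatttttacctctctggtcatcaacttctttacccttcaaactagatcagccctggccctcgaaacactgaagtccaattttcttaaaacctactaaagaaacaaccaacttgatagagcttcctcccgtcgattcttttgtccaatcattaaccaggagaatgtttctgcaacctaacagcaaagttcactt
Adra1b, second start: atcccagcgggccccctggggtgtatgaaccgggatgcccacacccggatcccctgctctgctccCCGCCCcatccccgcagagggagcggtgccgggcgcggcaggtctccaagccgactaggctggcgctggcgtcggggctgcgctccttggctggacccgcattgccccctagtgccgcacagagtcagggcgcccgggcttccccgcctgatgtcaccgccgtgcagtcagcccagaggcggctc
The first stretch is 41.6% G + C and the second 72.8%, against a median of 52.4% over 32851 promoters of the same length in the table. The GC box of the second stretch is at position 66, and 32.7% of all promoters hold such a box. Neither stretch holds TGACGTCA, the CRE bound by CREB (in 1.55% of all promoters), a CArG box, the element of serum response factor (in 1.47%), or TATAAA (in 12.4%), on either strand. RefSeq entries were found for 4 of the 7 members.

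The genes lie apart in the genome (GRCm39, GENCODE vM39). Adra1a (ENSMUSG00000045875) is at chr14:66872700-67012152, Adra1b (ENSMUSG00000050541) at chr11:43665433-43792037 and Adra1d (ENSMUSG00000027335) at chr2:131385993-131404693. Adra2a (ENSMUSG00000033717) is at chr19:54032582-54037413, Adra2b (ENSMUSG00000058620) at chr2:127205128-127209141, Adrb1 (ENSMUSG00000035283) at chr19:56710631-56721545 and Adrb3 (ENSMUSG00000031489) at chr8:27715443-27740925. Counts were made over all exons of a gene, UTRs included. The exons of Adra1a, Adra1b and Adra2b share no base with another gene. Long noncoding RNAs on the opposite strand cover 44.4% of the exon bases of Adrb3 (Gm45470), 21.3% of Adra1d (Gm14285), 15.7% of Adrb1 (Gm59077, Gm59115) and 7.91% of Adra2a (Gm59091). The strand setting of the counting is not stated, so that reads of these pairs cannot be told apart.

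Counts were too low for a comparison in 2 members. Adra1a, the third alpha 1 subtype, had 0 counts in 62 of 69 libraries and at most 4. Adra2b had 0 counts in 36 libraries and at most 10, in 1 KO VSMC and 1 EC library, and its highest group median was 3 counts. A count of 0 allows up to 3 counts, or 0.0694 to 0.175 FPM depending on the EC library and 0.0794 to 0.129 FPM in VSMC. These limits cover counting error only. The other 5 members passed the filter on low counts in every fit.

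Among these, the alpha 1 subtypes had the highest means in every cell type. Per kilobase of exon, Adra1d had the highest level, with a mean over sets of 2.29 ± 2.11 FPM per kb in EC (SD, n = 10 sets), 7.58 ± 2.35 in WT VSMC (n = 4) and 16.6 ± 10.5 in KO VSMC (n = 4). Adra1b followed with 0.996 ± 0.67, 1.35 ± 0.82 and 2.95 ± 2.53 FPM per kb. Adra1d was above Adra1b in 4 of 4 WT VSMC sets, 4 of 4 KO VSMC sets and 8 of 10 EC sets. Single EC sets went against this order, as Adrb1 led in set 18 (1.42 FPM per kb, with Adra1d at 0.44 and Adra1b at 0.18) and Adra2a in set 14 (0.54 FPM per kb, with Adra1d at 0.12 and Adra1b at 0.22). The third in VSMC was Adrb3, with 0.78 ± 0.61 FPM per kb in WT VSMC and 0.34 ± 0.14 in KO VSMC. Adra2a (0.25 ± 0.25 and 0.14 ± 0.20 FPM per kb in WT and KO VSMC) and Adrb1 (0.21 ± 0.05 and 0.10 ± 0.04) changed places from set to set, with Adra2a above in 2 of 4 sets of each genotype. In EC, Adrb1 (0.26 ± 0.42 FPM per kb) was above Adrb3 (0.18 ± 0.12) in 5 of 10 sets, and their order is therefore not fixed. Adra2a was lowest of the 5 at 0.12 ± 0.16 FPM per kb.

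**Figure D1:**
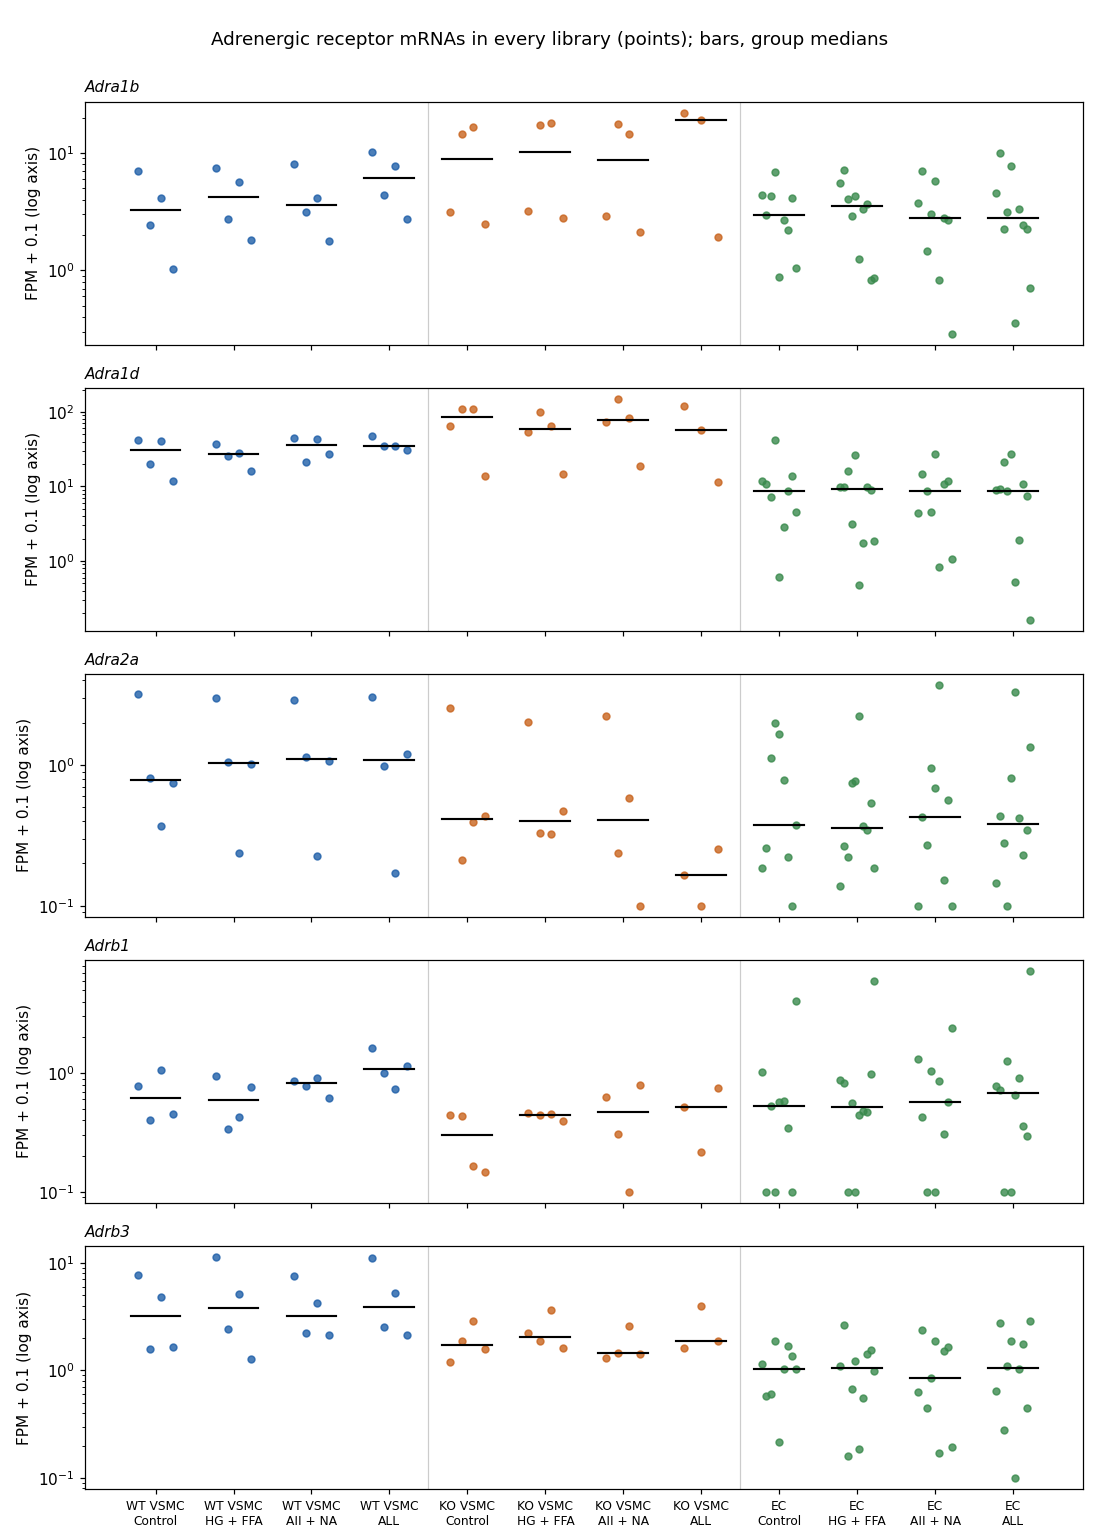
FPM + 0.1 of the 5 countable receptors on log axes, 1 point per library and a bar at the median of each of the 12 groups (sets in ascending order from left to right within a group). Adra1d lies between 11.5 and 150 FPM in VSMC and reaches down to 0.064 FPM in EC, and for most genes the points of a group span more than the step between the bars of neighbouring conditions.

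The culture set accounted for more of the spread than the stressor in 14 of 15 pairs of gene and cell type. Of the variance of log2(FPM + 0.1) of Adra1b, 83.4% lay between sets in EC, 83.5% in WT VSMC and 98.4% in KO VSMC, and 1.03%, 13.6% and 2.21% lay between conditions. Each share was taken on its own, so that the shares overlap where a set lacks a condition, as in KO VSMC and EC. EC also had more sets than conditions (10 against 4), for which no allowance was made. Adra1d had 86.1%, 60.2% and 95.1% between sets in the same order. Adrb1 in WT VSMC was the exception, with 24.3% between sets and 36.1% between conditions, at 6 to 47 counts per library. The sets of WT VSMC ranked alike for several receptors. Set 1 had the highest mean of Adra1b, Adra1d, Adra2a, Adrb1 and Adrb3, and set 4 the lowest of Adra1b, Adra1d and Adrb3.

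Adra1b, the alpha 1B receptor, rose under ALL stressors in WT VSMC. In Control it was at 6.96, 2.31, 4.00 and 0.93 FPM in sets 1 to 4 (235, 68, 150 and 26 counts), and under ALL at 10.1, 4.32, 7.69 and 2.65 FPM (313, 123, 219 and 58 counts). Every set was higher under ALL than in its own Control, while the groups overlapped because set 1 stayed high and set 4 low throughout. The log2FC was 0.89 ± 0.15 (SE, n = 4, edgeR quasi-likelihood test with the set as block, FDR = 0.00265). It was the 1 member of 5 called (FDR under 0.05) in this comparison, where 7.45% of all 16905 genes tested were called. The study's own definition of a DEG adds DESeq2, a log2FC limit and an FPM limit, and was applied to protein-coding and lncRNA genes. Adra1b was again the 1 member called, against 2.18% of all genes tested, other types included. The study also made a separate paired test of chosen marker genes. By its confidence intervals Adra1b changed in WT VSMC under HG + FFA, AII + NA and ALL, and Adrb3 under HG + FFA and ALL. Leaving out each WT VSMC set in turn gave a log2FC of 0.78 to 1.06 and an FDR of 0.00837 to 0.0178. Without the set as a block the log2FC was 0.80 and the FDR 0.9999, in a fit that called 0 of 16905 genes.

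Neither pair of stressors gave a called change of Adra1b on its own. HG + FFA left it at 7.32, 2.66, 5.57 and 1.71 FPM in sets 1 to 4, a log2FC of 0.35 ± 0.15 (edgeR FDR = 0.400). AII + NA left it at 8.00, 3.02, 4.01 and 1.68 FPM, a log2FC of 0.29 ± 0.15 (edgeR FDR = 0.601). All 4 sets lay above their Control under both, although set 3 under AII + NA did so by 0.0012 on the log2 scale. No member was called under HG + FFA, where 0.538% of all genes were, or under AII + NA, where 0.0532% were. ALL exceeded HG + FFA by 0.55 ± 0.15 (edgeR FDR = 0.157, 0.0414% of all genes called) and AII + NA by 0.61 ± 0.15 (edgeR FDR = 0.0573, 1.36% called), and DESeq2 called Adra1b in both of these. The effect of ALL minus the sum of both single effects was 0.26 ± 0.22 (edgeR FDR = 0.9998). No gene was called for that quantity (0% of 16905), with 290 genes at an unadjusted p under 0.05, and DESeq2 called 0 genes too.

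**Figure D2:**
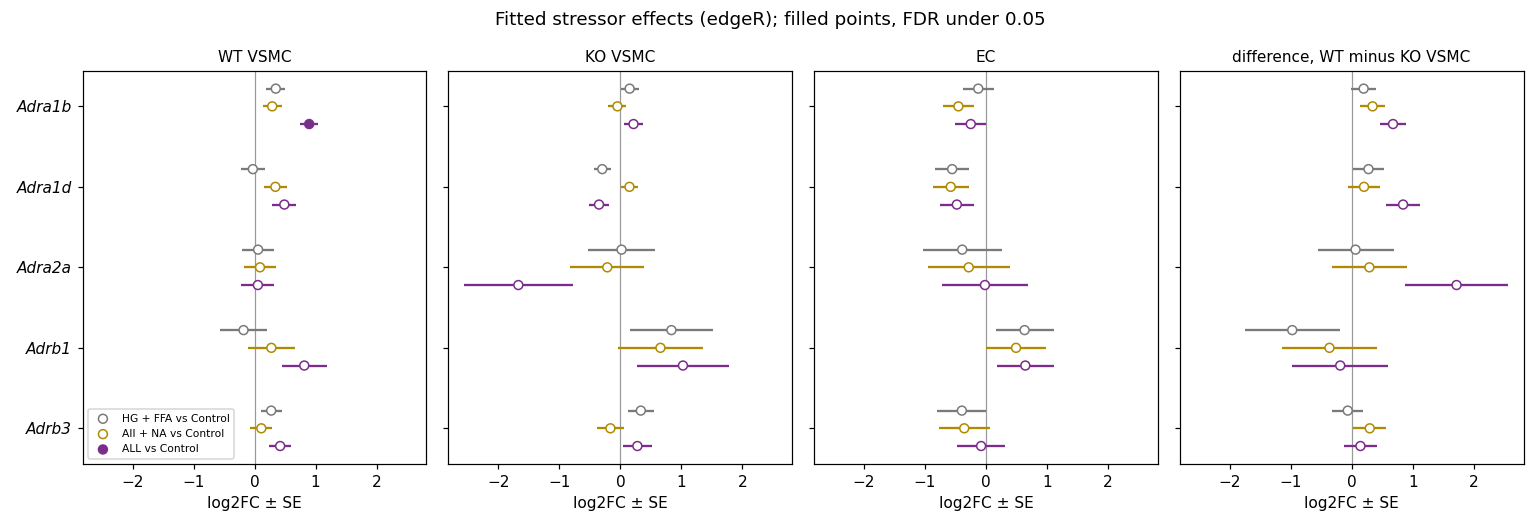
Fitted log2FC against Control with its SE for the 5 countable receptors in each cell type, and the difference of these effects between WT and KO VSMC. The single filled point (FDR under 0.05, edgeR) is Adra1b under ALL in WT VSMC at 0.89.

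The other members were not called in WT VSMC. Adra1d, the alpha 1D receptor, was at 41.6, 20.1, 40.6 and 11.8 FPM in Control and at 46.8, 34.4, 34.9 and 30.9 FPM under ALL in sets 1 to 4. Sets 2 and 4 were clearly higher under ALL, set 1 slightly, and set 3 lower. Its log2FC was 0.49 ± 0.19 (edgeR FDR = 0.151), and between 0.24 and 0.74 when each set was left out in turn. Set 4, with the largest log2 ratio of Adra1d (1.38), also had the largest ratio of 7 of the 9 smooth muscle markers, among them Acta2 (2.49), Myocd (1.92), Tagln (1.91) and Cnn1 (1.72). Over the 4 WT VSMC sets, Tagln, Cnn1, Myh11 and Cald1 were higher under ALL in each set, Acta2 and Myocd in 3, Lmod1 and Des in 2 and Smtn in 0. Adra1b had its largest log2 ratio under ALL in set 4 as well (1.42, from 26 counts in Control). The part of these markers in the Adra1d and Adra1b values was not tested.

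Adrb1, the beta 1 receptor best known from the heart, was at 23, 9, 36 and 10 counts in Control and at 47, 26, 18 and 23 counts under ALL in sets 1 to 4. It was higher in 3 of 4 sets, with a log2FC of 0.81 ± 0.37 (edgeR FDR = 0.214), and it passed the threshold only when set 3 was left out. Adrb3, the beta 3 receptor known for lipolysis in fat cells, was at 43 to 259 counts in Control and 45 to 343 under ALL. It was higher in 4 of 4 sets on the FPM scale, with a log2FC of 0.42 ± 0.18 (edgeR FDR = 0.175). Adra2a, the alpha 2A receptor, was at 104, 21, 10 and 18 counts in Control and 91, 25, 2 and 24 under ALL, with a log2FC of 0.05 ± 0.27 (edgeR FDR = 0.945).

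**Figure D3:**
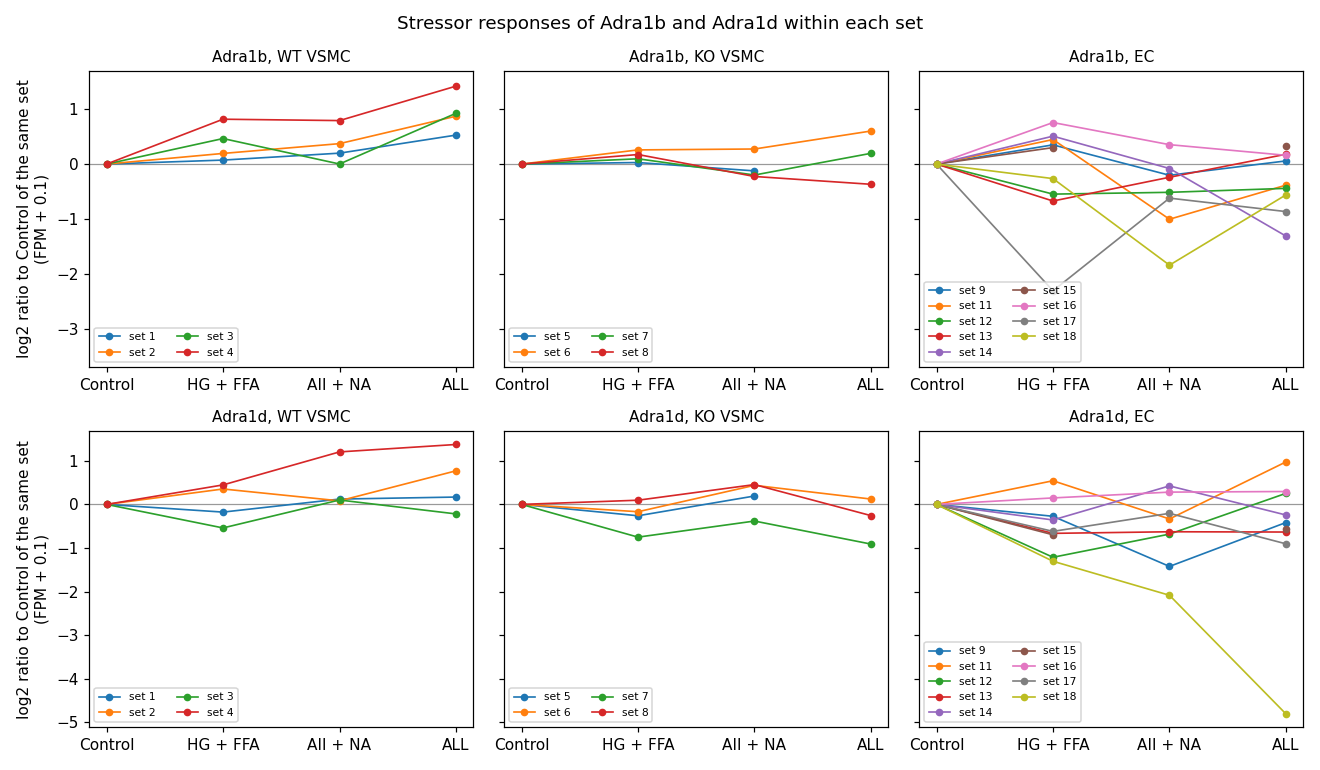
Log2 ratio of FPM + 0.1 against the set's own Control library for Adra1b (top) and Adra1d (bottom), 1 line per set. The 4 WT VSMC lines of Adra1b end between 0.53 and 1.42 under ALL, the 3 KO VSMC lines between -0.37 and 0.60, and the 9 EC sets with both libraries lie between -1.31 and 0.32.

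In KO VSMC no member was called under HG + FFA (0.439% of 17538 genes called), AII + NA (0% called by edgeR, with 1711 genes at an unadjusted p under 0.05 and 11 called by DESeq2) or ALL (0.399% called). Adra1b was at 3.04, 14.4, 16.7 and 2.37 FPM in Control in sets 5 to 8 and at 21.9, 19.1 and 1.81 FPM under ALL in sets 6 to 8. Sets 6 and 7 were above their Control and set 8 below it. The log2FC was 0.22 ± 0.16 (n = 3 sets under ALL and 4 in Control, edgeR FDR = 0.647), and -0.039 without set 6. Adra1d was at 64.2, 111, 108.8 and 13.8 FPM in Control in sets 5 to 8 and at 121, 57.8 and 11.5 FPM under ALL in sets 6 to 8. Only set 6 was above its Control, and the log2FC was -0.35 ± 0.16 (edgeR FDR = 0.449), between -0.61 (without set 6) and -0.091 (without set 7) when each set was left out in turn. Adra2a had 2, 0 and 4 counts under ALL in sets 6 to 8, too few for its log2FC of -1.67 ± 0.89 (edgeR FDR = 0.531) to be read as a change.

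The stressor effects were then compared between genotypes in 1 model of both. The ALL effect on Adra1b was larger in WT than in KO VSMC by 0.68 ± 0.21 on the log2 scale (edgeR, unadjusted p = 0.00426, FDR = 0.384). That on Adra1d was larger by 0.84 ± 0.28 (edgeR, unadjusted p = 0.00549, FDR = 0.429). For Adra1b the lowest WT VSMC ratio was 0.53 and the highest KO VSMC ratio 0.60, so that the sets of the genotypes overlapped. Neither difference passed the adjustment over 18339 genes, of which edgeR called 0.0109% under ALL. DESeq2 called 58 genes for that difference. Under HG + FFA and AII + NA no gene was called (0% each), with 564 and 2182 genes at an unadjusted p under 0.05 and 0 called by DESeq2, and the differences of the members lay between -0.98 (Adrb1, HG + FFA) and 0.34 (Adra1b, AII + NA). A call of Adra1b in WT VSMC and none in KO VSMC is therefore not a shown difference between the genotypes at this depth and number of sets.

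Levels were also compared between the genotypes. The cultures differed in their fibroblast markers as well. The set means of that sum were 4388 to 9622 FPM in WT VSMC, 6083 FPM in KO VSMC set 5 and 1526 to 2169 FPM in KO VSMC sets 6 to 8. The part of this difference in the receptor levels was not tested. Averaged over the libraries of a set, all conditions included, Adra1d was at 42.6, 25.4, 36.8 and 21.6 FPM in WT VSMC and 63.7, 120, 78.7 and 14.7 FPM in KO VSMC. Sets 5 to 7 were above all WT VSMC sets and set 8 below them. In Control libraries the log2FC of KO against WT was 1.37 ± 0.61 (edgeR FDR = 0.409), and 1.11 to 1.71 when each set was left out in turn. Adra1b fell into a high pair (17.8 and 17.02 FPM in sets 6 and 7) and a low pair (2.97 and 2.22 FPM in sets 5 and 8) in KO VSMC, while the WT VSMC sets averaged 1.74 to 8.09 FPM, and its log2FC was 1.35 ± 0.76 (edgeR FDR = 0.461). Set 5, with Egfr left at 36.2 FPM, was in the high group for Adra1d and in the low pair for Adra1b.

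Averaged over all conditions, Adrb1 was lower in each KO VSMC set than in any WT VSMC set. Its set means were 0.95, 0.53, 0.68 and 0.65 FPM in WT VSMC and 0.41, 0.32, 0.13 and 0.42 FPM in KO VSMC, without overlap. In the Control libraries alone the genotypes overlapped, since KO VSMC sets 5 and 6 (0.345 and 0.337 FPM) lay above WT VSMC set 2 (0.306 FPM). A permutation test of the 8 set means on the log2 scale gave p = 0.0286 (exact, two-sided), the smallest that 4 against 4 sets allow, and 0.143 after adjustment over the 5 members. In Control libraries the log2FC was -1.50 ± 0.67 (edgeR FDR = 0.409) from 1 to 12 counts per KO VSMC library. No member was called in that comparison, in which 0.00622% of all 16089 genes were. Egfr, the deleted gene, was not called there either, with a log2FC of -5.15 ± 1.37 (edgeR FDR = 0.320). DESeq2 called 343 genes in it. Without KO VSMC set 5 edgeR called 397 genes, with 0 members among them. A missing call in this fit thus does not show equal levels. The set means of Adrb3 (1.69 to 9.32 FPM in WT VSMC, 1.47 to 3.17 in KO VSMC) and Adra2a (0.15 to 2.92 and 0.13 to 2.17 FPM) overlapped between the genotypes.

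In EC no stressor gave a called change of a member. Of all 17148 genes tested, 3.53% were called under HG + FFA, 0% under AII + NA (1143 genes at an unadjusted p under 0.05, and 0 called by DESeq2) and 3.18% under ALL. Adra1b was at 0.78 to 6.76 FPM in Control (median 2.85, n = 9) and 0.25 to 9.85 FPM under ALL (median 2.70, n = 10). It was lower under ALL in 5 of the 9 sets with both libraries, with a log2FC of -0.25 ± 0.25 (edgeR FDR = 0.682). Under AII + NA it was lower in 7 of 8 sets, with a log2FC of -0.45 ± 0.26 (edgeR FDR = 0.719). Adra1d had medians of 8.69, 9.26, 8.58 and 8.70 FPM in Control, HG + FFA, AII + NA and ALL. It was lower than Control in 7 of 9, 6 of 8 and 6 of 9 sets, with log2FC of -0.56 ± 0.28, -0.58 ± 0.29 and -0.48 ± 0.28 (edgeR FDR = 0.306, 0.719 and 0.416). Adra1d was called under HG + FFA only in the fit without a filter on low counts. Leaving out sets 9, 11 and 13, which have the lowest endothelial markers, gave no call of a member either.

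Single EC sets stood apart in some receptors. Set 13 had the highest Adra1d, with 1011 counts and 42.5 FPM in Control, where the other 8 libraries were at 0.52 to 13.7 FPM. Set 14 had the lowest Adra1d (22 counts in Control) and the highest Adra2a, at 104 counts and 3.62 FPM under AII + NA against at most 0.85 FPM in the other sets. Set 18 had 113, 207, 73 and 225 counts of Adrb1 in Control, HG + FFA, AII + NA and ALL, or 3.93, 5.86, 2.31 and 7.15 FPM. Set 17, from the same animal, had 0, 24, 15 and 4 counts, so that this level was not shared by the animal's other culture. Sets 11 and 13 had 0 counts of Adrb1 in all 4 libraries.

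Over the 9 EC animals, Adra1d moved with the smooth muscle markers. Mean log2 levels of Adra1d and of the summed 9 markers had Pearson's r = 0.76 (exact permutation p = 0.0194, adjusted 0.0969 over 15 relations of 5 members with 3 marker lists) and Spearman's rho = 0.95 (exact permutation p = 0.000353, adjusted 0.00529). Without the 2 animals farthest from the median marker level r was 0.79. With the fibroblast markers r was 0.75 (exact permutation p = 0.0188, adjusted 0.0969) and rho 0.77 (exact permutation p = 0.0214, adjusted 0.160), and with the endothelial markers r was -0.69 (exact permutation p = 0.0334, adjusted 0.100) and rho -0.65 (exact permutation p = 0.0666, adjusted 0.250). Adrb1 and the smooth muscle markers had r = -0.94 (exact permutation p = 0.00398, adjusted 0.0597) and rho = -0.66 (exact permutation p = 0.0598, adjusted 0.250), with r = -0.50 without the 2 farthest animals, so that this relation rests on those animals. The other 11 relations had adjusted p of 0.100 or more for r.

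**Figure D4:**
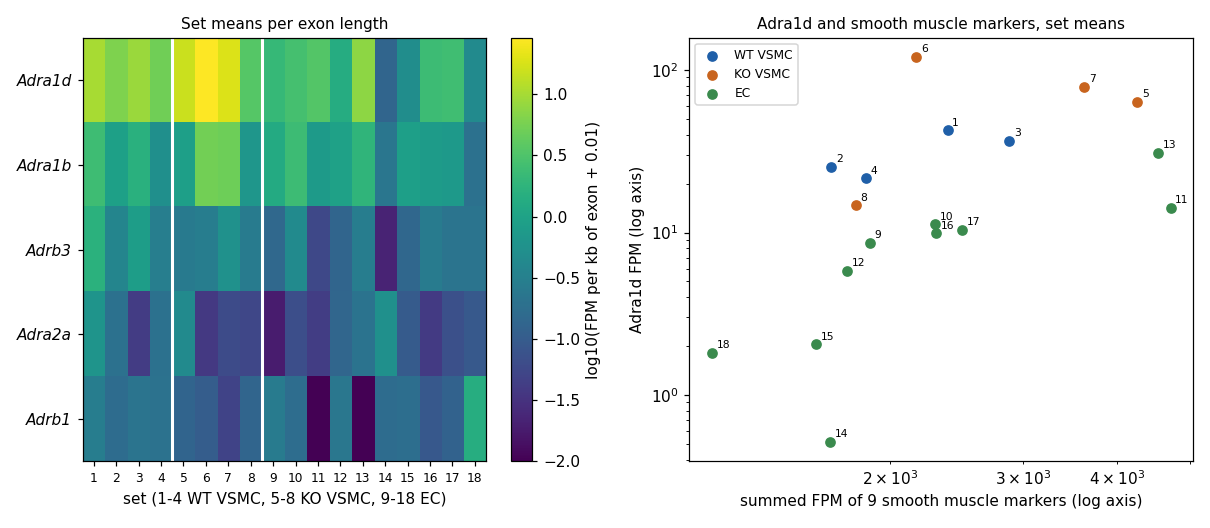
Left, log10 of the set mean per kb of exon (FPM per kb + 0.01) for 5 receptors in 18 sets, with white lines between the cell types. Right, set means of Adra1d against the summed FPM of 9 smooth muscle markers on log axes, numbered by set. The EC points run from set 14 (0.51 FPM of Adra1d) and set 18 (1.82) up to set 13 (30.997), and the 2 sets at 0 for Adrb1 are 11 and 13.

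EC and WT VSMC were compared in Control, where cell type, organ (heart against aorta) and labelled batch cannot be told apart. The 9 EC libraries were not all from separate animals, since EC set 18 shared its animal with another EC set. EC set 9 shared its animal with WT VSMC set 1. The fit had no block for the animal. Adrb3 was the 1 member of 5 called, while 12% of all 17115 genes were. It was at 43 to 259 counts in WT VSMC (1.496 to 7.67 FPM, median 3.13, n = 4) and 5 to 42 counts in EC (0.12 to 1.76 FPM, median 0.94, n = 9). The highest EC library thus lay above the lowest WT VSMC library. The log2FC of EC against WT VSMC was -2.02 ± 0.57 (edgeR FDR = 0.0371). It was -1.45 (FDR = 0.174) without WT VSMC set 1, and without set 2, set 3 or EC set 18 the FDR was 0.0522, 0.101 and 0.0538. With EC set 18 left out, each EC animal gave 1 library, and Adrb3 was not called. Adra1d had a log2FC of -1.34 ± 0.72 (edgeR FDR = 0.219), and of -2.21 ± 0.67 (FDR = 0.0293) without EC sets 9, 11 and 13. Adra1b (-0.19 ± 0.57), Adra2a (-0.88 ± 0.97) and Adrb1 (0.30 ± 1.19) were not called. In the 4 animals that gave both cell types, Adra1d set means over all conditions were 42.6 and 25.4 FPM in WT VSMC (sets 1 and 2). They were 78.7 and 120 FPM in KO VSMC (sets 7 and 6). The EC sets of these animals, in the same order, were at 8.65, 11.3, 2.06 and 9.90 FPM (sets 9, 10, 15 and 16).

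Genes that act with the receptors were taken from 5 lists of 70 genes in all. Under ALL in WT VSMC, 3 of the 58 tested were called higher and 2 lower, where 7.45% of all genes were called, with a median log2FC of 0.04 against -0.01 over all genes. Adcy1, an adenylyl cyclase that makes cAMP, rose in 4 of 4 sets from a mean of 15.6 to 50.6 FPM (log2FC 1.87 ± 0.23, edgeR FDR = 0.000433). Gnas, the Gs alpha subunit through which beta receptors act, rose from 112 to 142 FPM (0.34 ± 0.07, edgeR FDR = 0.00666). Grk5, a kinase that desensitizes receptors, rose from 65.7 to 77.2 FPM (0.23 ± 0.06, edgeR FDR = 0.0362). Itpr3, an IP3 receptor, fell from 33.2 to 24.6 FPM (-0.43 ± 0.10, edgeR FDR = 0.0188), and Sult1a1, a sulfotransferase, fell from 8.80 to 5.79 FPM (-0.61 ± 0.18, edgeR FDR = 0.0496). Each of these genes moved in its direction in 4 of 4 sets.

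By list, 1 of 9 G alpha subunits was called higher under ALL in WT VSMC, 1 of 12 tested genes for phospholipase C beta, IP3 receptors and protein kinase C was called lower, and 1 of 24 for adenylyl cyclases, protein kinase A and phosphodiesterases higher. Of the GRKs and arrestins 1 of 6 was called higher, and of 7 genes for making, taking up and breaking down catecholamines 1 was called lower. Under HG + FFA and AII + NA alone 0 of the 58 were called by edgeR in WT VSMC, with 8 and 7 at an unadjusted p under 0.05. In KO VSMC, Adcy1 was the 1 of 60 tested that was called, under HG + FFA (1.32 ± 0.18, edgeR FDR = 0.00265, higher in 4 of 4 sets) and under ALL (1.23 ± 0.19, edgeR FDR = 0.0130, higher in 3 of 3 sets). No list gene differed between the genotypes in its response in the edgeR test, with 2 of 61 at an unadjusted p under 0.05 under ALL.

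In EC, Maoa, the monoamine oxidase that breaks down norepinephrine, rose from a mean of 115 FPM to 183 FPM under HG + FFA (0.55 ± 0.10, edgeR FDR = 0.00175, higher in 8 of 9 sets) and to 175 FPM under ALL (0.47 ± 0.10, edgeR FDR = 0.00854, 8 of 9 sets). Prkce, a protein kinase C isoform activated by diacylglycerol, rose under both (0.22 ± 0.06, edgeR FDR = 0.0235, and 0.23 ± 0.06, FDR = 0.0194). Adcy1 rose under HG + FFA in 9 of 9 sets (0.72 ± 0.14, edgeR FDR = 0.00245), and Prkcd, another such isoform, fell under ALL (-0.21 ± 0.06, edgeR FDR = 0.0264). That made 3 of 58 tested called higher under HG + FFA, where 3.53% of all genes were called, and 2 higher and 1 lower under ALL, where 3.18% were. Under AII + NA edgeR called 0 of 58, with 4 at an unadjusted p under 0.05.

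Between EC and WT VSMC in Control, 12 of 59 tested list genes were called higher in EC and 3 lower, where 12% of all genes were called, with a median log2FC of 0.34 against 0.05 over all genes. In the phospholipase C list 1 of 12 was lower (Prkcb, a protein kinase C isoform) and 6 were higher, among them Plcb1 (2.28 ± 0.47, edgeR FDR = 0.00968), Itpr1 (2.21 ± 0.38, edgeR FDR = 0.00407) and Prkca (1.18 ± 0.24, edgeR FDR = 0.00886). Gnaq, the Gq alpha subunit through which alpha 1 receptors act, was higher (1.14 ± 0.32, edgeR FDR = 0.0370) and Gnas lower (-0.89 ± 0.17, edgeR FDR = 0.00776). Of 24 genes for adenylyl cyclases, protein kinase A and phosphodiesterases, 4 were higher in EC (Prkar2b, Pde4a, Pde4b and Prkacb) and 1 was lower. The lower one was Adcy7 (-2.96 ± 0.61, edgeR FDR = 0.00968). Grk5 was higher in EC (1.13 ± 0.23, edgeR FDR = 0.00973). Between KO and WT VSMC in Control edgeR called 0 of 57, with 7 at an unadjusted p under 0.05.

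For 3 members with a mean of at least 3 FPM in WT VSMC, the genes with the most similar pattern were looked up among 11183 protein-coding genes, as Pearson's r of log2(FPM + 0.1) less the set mean over the 16 WT VSMC libraries. The nearest to Adra1b were Kif1c (r = 0.94), Atf6b (0.94) and Hspa4 (0.94). For Adra1d they were Pcyox1l (0.96), Fhl2 (0.94) and Cenpv (0.94), and for Adrb3 Kctd1 (0.88), Sinhcaf (0.87) and Kat14 (0.86). These libraries share the same 4 sets and 4 conditions, and no test was made of these values.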

How the data were processed

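Poly(A) RNA was sequenced from 16 WT VSMC, 15 KO VSMC and 38 EC libraries. Per the submitters' processing notes the authors aligned reads with HISAT2 2.1.0 to mm39 and deposited raw counts of reads per gene from featureCounts, with multimapping reads counted over exons. The strand and read pair settings are not given in the sources used here. No normalization or filter had been applied.

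From these deposited counts, FPM and fits were computed with R 4.3.3, edgeR 4.0.16 and DESeq2 1.42.0, and figures with Python 3.11.15 and matplotlib 3.10.9. Genes were filtered by filterByExpr, scaled by TMM and tested by edgeR's quasi-likelihood test with the set number as block, with Benjamini-Hochberg adjustment over all genes (FDR). Called means an FDR under 0.05. The DEG rule of the study adds DESeq2, a log2FC size of at least 0.64 and at least 3 FPM in a group, for protein-coding and lncRNA genes. Genotype and cell type comparisons in Control had no block. SE is the log2FC size divided by the root of F. The fits were tested on simulated data.

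The set number in the labels marks 1 animal and passage treated together. Deviations from condition means had a mean correlation of 0.80, 0.78 and 0.82 within sets of WT VSMC, KO VSMC and EC, and of -0.27, -0.28 and -0.09 between sets. Sets of a genotype came from separate animals, EC sets 17 and 18 excepted. No libraries were duplicates. The smallest chi-square per gene between libraries of a group was 41.6.

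Symbols came from GENCODE vM39 (0.0241% of counts on unmatched identifiers). Members that did not pass filterByExpr were given as counts. For lists, up to 5 called genes with the smallest FDR were named. For each member at 3 FPM or more, the 3 most similar genes were named. Prkcb, single genes of the marker lists and single libraries were named after their values were seen. The members and lists were chosen with earlier results of these data known. Alternatives were DESeq2, its size factors, no filter, no block, single sets left out, the DEG rule, the animal as block, complete sets, summed sets and a pseudocount of 0.5 in place of 0.1 FPM. Protein sequences were not used here.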

Additional observations from a re-analysis of the deposited data

Results flagged for a closer look

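Of 55 groups of 4 to 10 libraries, 11 held a library of a receptor far from the others by Dixon's ratio on FPM without logs. The rule's rate of about 1 in 20 holds for independent values with a normal spread. Groups here share their sets and FPM was not on a log scale, so that no excess over chance can be read. In WT VSMC set 1 was high for Adra2a in Control (3.08 FPM, others 0.27 to 0.71). In KO VSMC set 5 was high for Adra2a in Control (2.45 FPM, others 0.11 to 0.33) and under HG + FFA (1.91 FPM, others 0.22 to 0.37), and set 7 for Adrb3 under AII + NA (2.50 FPM, others 1.19 to 1.36). In EC set 13 was high for Adra1d in Control (42.5 FPM, others 0.52 to 13.7). EC set 14 was high for Adra2a under HG + FFA (2.13 FPM, others 0.04 to 0.67), AII + NA (3.62 FPM, others up to 0.85) and ALL (3.21 FPM, others up to 1.24). EC set 18 was high for Adrb1 in Control (3.93 FPM, others up to 0.92), HG + FFA (5.86 FPM, others up to 0.88) and ALL (7.15 FPM, others up to 1.16). KO VSMC set 5 and EC sets 14 and 18 each recurred for the same receptor.

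The ALL effect differed between the genotypes at an unadjusted p under 0.05 for 2 of the 15 differences tested. These were Adra1b, larger in WT VSMC by 0.68 (edgeR FDR = 0.384), and Adra1d, larger by 0.84 (edgeR FDR = 0.429).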

How the results depend on the processing

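For the counts of members called and the mean log2 ratios of Adra1b and Adra1d in VSMC, 151 of the 166 alternative values were taken as the same as reported. A mean log2 ratio was taken as the same when it moved by less than its SD over sets. Under ALL against Control in WT VSMC, 1 member was called in the fit reported, 2 without a filter on low counts (Adra1b, and Adra1d with an FDR of 7.51e-05), 0 without the replicate block, and 1 to 2 with each set left out in turn. Against HG + FFA DESeq2 called 1 member and the fit without a filter 2, and against AII + NA each of them called 1, where 0 were reported. The fit without a filter tested 33583 genes in place of 16905 in WT VSMC, and it also called 1 member, Adra1d, under HG + FFA in EC and for the genotype difference under ALL. For EC against WT VSMC it called 0 members, the fits without each WT VSMC set in turn or without EC set 18 0 to 1, and the fit without EC sets 9, 11 and 13, which was chosen after seeing the data, 2 (Adra1d and Adrb3). The log2FC of Adra1b under ALL in KO VSMC was -0.039 to 0.37 with each set left out in turn and changed sign, to -0.039, without set 6. The cause was not tested for any of these. Without the replicate block the log2FC of Adra1b under ALL in WT VSMC was 0.80, against 0.89 with it. A pseudocount of 0.5 FPM gave 0.82 in place of 0.94 for the mean log2 ratio of Adra1b over WT VSMC sets. Single libraries with under 10 counts of Adra2a or Adrb1 limit what can be seen for these genes, and 3 or 4 sets of VSMC limit every comparison of genotypes.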
